A study of Mus musculus with 30 samples.

Results

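Brain messenger RNA of wild-type mice at 24 months of age was compared with that of wild-type mice at 45 days. The comparison uses 10 of the 30 samples of the series, the 5 deposited columns of each of these ages, chosen by their names. The remaining samples are wild-type brain at 12 months and brain labelled Csa-/- at 45 days, 12 months and 24 months. Csa is another name of Ercc8, a gene of transcription-coupled DNA repair whose loss causes Cockayne syndrome, and the wild-type mice are the counterparts of that line. The labels name no other allele and no drug apart from the overdose of xylazine and ketamine used to kill the mice. Strain, sex and the number of animals behind a library were not given in the sources used here. Whole brains were frozen and pulverised, and poly(A) RNA was sequenced 5 times per sample on a SOLiD instrument.

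Between 45 days and 24 months the mouse brain passes from the end of its postnatal development into old age. At 45 days new oligodendrocytes are still wrapping axons with myelin, and matrix collagens are still being laid down around vessels and meninges. In the old brain, microglia (the resident macrophages) and astrocytes are known to take up a reactive state with complement, interferon-induced and antigen-presenting genes. A brain homogenate mixes all of these cells, so that fewer cells of a type and less RNA per cell cannot be told apart.

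The 5 columns of an age behaved as repeat runs of 1 library and were summed. A chi-square test of each gene over its 5 runs gave a median ratio to the degrees of freedom of 0.985 at 45 days and 1.01 at 24 months, somewhat above the 0.839 that counting error alone gives. The test had a p under 0.05 for 10.01% and 11.55% of the genes checked, and the coefficient of variation between runs beyond counting error was 0.0263. Run totals were 3762142 to 4641173 counts at 45 days and 2821708 to 6884322 at 24 months, and the summed libraries held 21155348 and 28723453 counts. The comparison therefore rests on 1 library per age: it compares these libraries, has no replicate check and carries no p-value. Levels are in CPM (counts scaled to the library total with TMM factors). A gene was measured if it reached 5 CPM in the higher library, and it is called higher or lower where the exact 95% counting interval of its fold lay beyond 1.5-fold. A gene below 5 CPM at 1 of the ages thus enters only through the age where it is higher. Counts and medians of lists with such genes are partly set by this rule. Such intervals cover counting error only. Ercc8 stood at 13.5 and 12.4 CPM in wild type and at 13.8 and 13.5 CPM at the same ages in the libraries labelled Csa-/-, so its level does not separate the genotype labels. Xist was at 0.380 and 0.337 CPM in the wild-type libraries and the Y-linked Ddx3y at 86.7 and 62.8 CPM. Of 4 measured Y-linked genes 1 was called, Uty, which was lower at 24 months by both counts described below (46.1 and 19.7 CPM, 0.427-fold). The neuronal genes Snap25 (2860 and 2599 CPM) and Rbfox3 (242.7 and 210.1 CPM) and the myelin gene Mbp (5927 and 6979 CPM) had high counts at both ages. The 4 listed haemoglobin genes were at 0 in both libraries.

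Of 12442 measured genes, 410 were higher at 24 months (3.3%) and 469 were lower (3.77%). With library totals alone in place of TMM the split turned to 532 higher and 371 lower. The called members of the interferon, antigen presentation and complement lists were all higher, whereas those of the matrix, axon guidance and channel lists, and all but 1 of those of the oligodendrocyte lists, were lower. A trend with transcript length and GC content ran through the folds, and removing it left 283 of 12284 genes higher (2.3%) and 282 lower (2.3%). Counts of list members are given as counted first and then with that trend removed. The median log2 fold over all measured genes was -0.03 as counted.

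**Figure D1:**
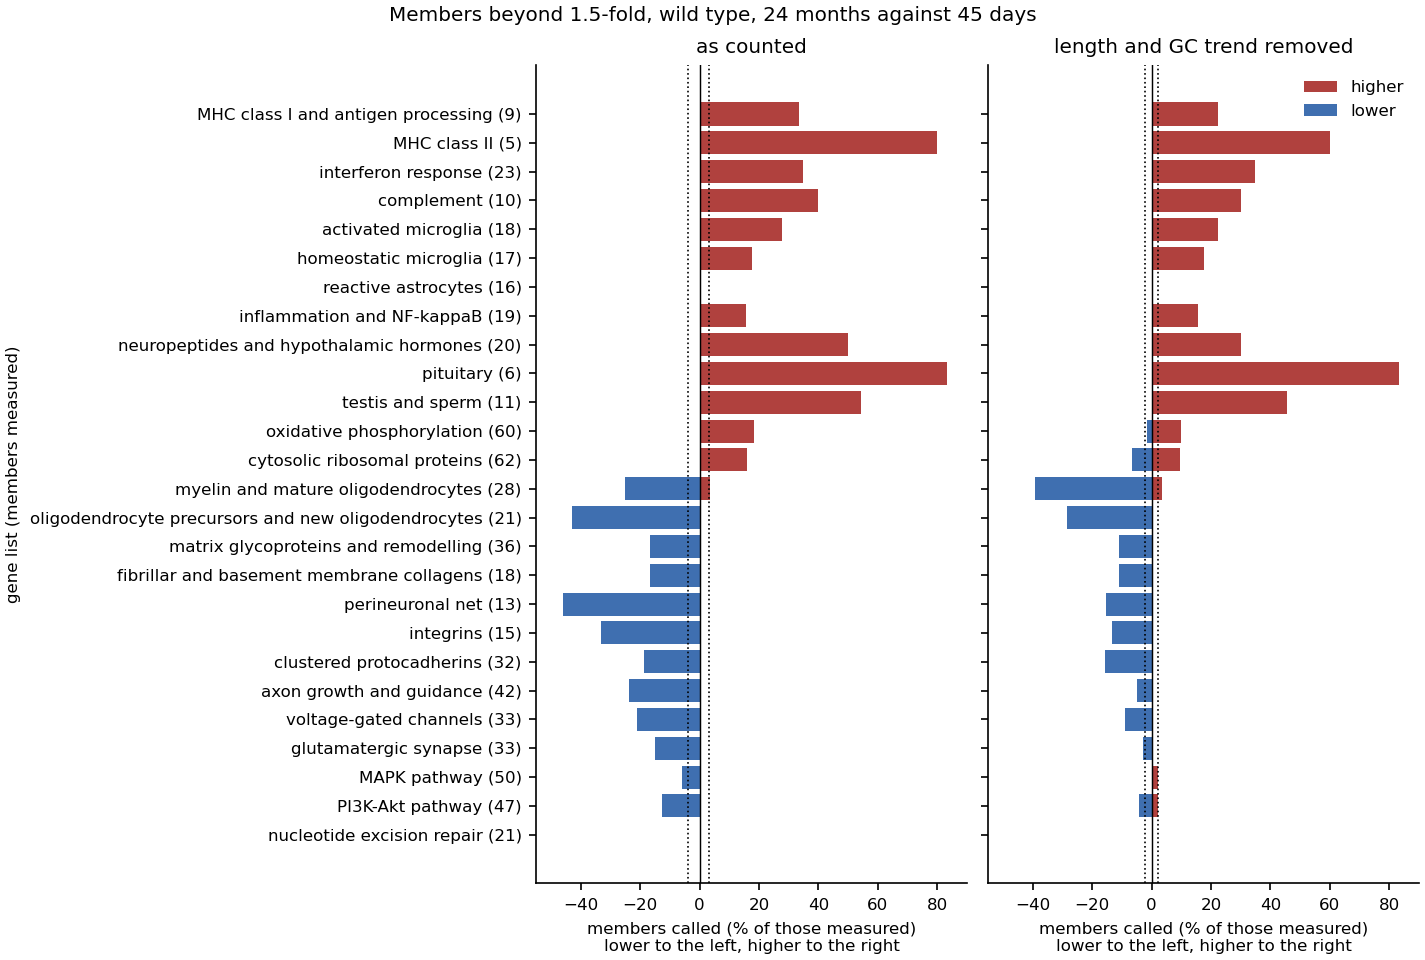
Share of the measured members of each gene list called higher (to the right, in % of members) or lower (to the left) at 24 months against 45 days in wild-type brain, as counted and after removal of the trend with length and GC; dotted lines give the shares over all measured genes. The immune, neuropeptide, pituitary and testis bars point to the right in both panels, the oligodendrocyte precursor and matrix bars point to the left in both, and the bars of axon guidance, channel and synapse genes shorten once the trend is removed.

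The promoters of 3 interferon-induced genes that were higher at 24 months are shown for the response element that all 3 hold. Interferon signalling ends in a complex of STAT and IRF proteins that binds a repeated element in the promoters of its target genes. The 250 bases before the start of 3 called members follow, from RefSeq on build GRCm38.p6, read 5′ to 3′ on the strand of the gene: Ifit1 at chr19:34640639-34640888 on the plus strand, Ifit3 at chr19:34583279-34583528 on the plus strand and Bst2 at chr8:71537473-71537722 on the minus strand. Capitals mark each match on either strand to GAAANNGAA, the core of the interferon-stimulated response element.
Ifit1: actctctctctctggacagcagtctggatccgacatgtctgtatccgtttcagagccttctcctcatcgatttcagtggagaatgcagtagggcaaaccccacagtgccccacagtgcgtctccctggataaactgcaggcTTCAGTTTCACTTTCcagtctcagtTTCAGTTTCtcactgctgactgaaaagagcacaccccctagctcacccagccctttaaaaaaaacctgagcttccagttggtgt
Ifit3: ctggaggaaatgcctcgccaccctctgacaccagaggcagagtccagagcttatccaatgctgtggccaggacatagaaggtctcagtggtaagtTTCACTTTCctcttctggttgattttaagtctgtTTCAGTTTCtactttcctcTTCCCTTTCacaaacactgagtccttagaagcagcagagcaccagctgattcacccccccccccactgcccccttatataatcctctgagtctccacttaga
Bst2: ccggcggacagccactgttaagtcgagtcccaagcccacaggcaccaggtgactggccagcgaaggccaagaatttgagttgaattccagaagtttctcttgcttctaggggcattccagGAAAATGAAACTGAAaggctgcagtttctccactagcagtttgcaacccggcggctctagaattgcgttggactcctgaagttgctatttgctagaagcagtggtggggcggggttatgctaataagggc
Ifit1 and Ifit3 hold 3 matches each and Bst2 holds 2, all before the start, and neighbouring matches overlap in Ifit1 and in Bst2. In windows of 300 bases (250 before to 50 after the start) this core occurs in 8.56% of 32851 RefSeq promoters and in 8.15% of the 9874 measured genes with a promoter entry. It occurs in 11 of the 19 measured interferon-list genes with an entry, and in 4 of the 6 called ones. A match describes letters in the window and is not evidence of binding.

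Of 23 measured interferon-response genes, 8 were higher and none was lower at 24 months, with 8 and 0 again after removal of the trend. Their median log2 fold was 0.65. Ifit3, which encodes an antiviral protein that binds with its relatives to foreign RNA, read 3.68, 3.74, 3.57, 3.55 and 5.05 CPM in the 5 runs at 45 days and 9.55, 10.7, 10.4, 11.3 and 10.6 CPM in the 5 runs at 24 months. Every run at 24 months was above every run at 45 days, but the runs of an age repeat 1 library, so their spread is technical. The fold of Ifit3 between the summed libraries was 2.64 (95% counting interval 2.07 to 3.41). Its neighbours on chromosome 19, Ifit1 (2.94 to 7.95 CPM, 2.70-fold) and Ifit3b (2.94 to 8.05 CPM, 2.73-fold), moved with it. Ifit3 and Ifit3b are near-identical copies, and how the authors' counting divided reads between them is not stated in the sources used here. Rtp4, an interferon-induced chaperone of receptors, stood at 2.14 CPM at 45 days and 8.29 CPM at 24 months (3.88-fold, 2.81 to 5.46). Bst2, whose product tethers virus particles to the cell surface, went from 2.75 to 8.99 CPM (3.27-fold, 2.45 to 4.42). Oasl2, of the oligoadenylate synthetase family, went from 4.22 to 10.1 CPM (2.38-fold). Ifit3, Ifit1, Ifit3b, Rtp4, Bst2 and Oasl2 were all below 5 CPM at 45 days, so they were measured only through the 24-month library. The absence of lower calls and the median of this list, with 23 of 35 genes measured, are therefore partly set by the 5 CPM minimum. At 12 months the wild-type level of Rtp4 (2.25 CPM) was close to that at 45 days. Bst2 (1.60 CPM) was then below its 45-day level, and Ifit3 (5.24 CPM) lay between the 2 ages.

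Part of the antigen presentation genes were higher too. MHC class II proteins display peptides to helper T cells and in the brain are made mainly by microglia and macrophages. Of 5 measured class II genes, 4 were higher as counted and 3 after removal of the trend, and none was lower. H2-Aa read 5.41, 5.07, 4.84, 5.21 and 3.74 CPM in the runs at 45 days and 15.3, 13.8, 13.3, 11.3 and 14.5 CPM in those at 24 months. These technical runs of the 2 ages did not overlap, and the fold was 2.89 (2.32 to 3.62). H2-Eb1 was 2.54-fold, H2-Ab1 2.22-fold and Cd74, the invariant chain that escorts class II molecules, 2.07-fold higher. H2-Eb1 and H2-Ab1 were below 5 CPM in every run at 45 days, so they were measured only through the 24-month library. Among 9 measured class I genes 3 were higher (2 with the trend removed) and none lower. H2-K1, a class I heavy chain that shares sequence with its paralogs, went from 19.9 to 48.0 CPM (2.41-fold, 2.16 to 2.69), and B2m, the light chain, went from 39.3 to 73.5 CPM (1.87-fold, 1.73 to 2.03). Psmb10, an immunoproteasome subunit, was 2.13-fold higher. Of 22 listed T and B cell genes 1 was measured and none was called. That gene was Cd4, at 8.16 and 9.06 CPM. Gzma and Gzmb had no count at either age, Ccl5, Cd3d, Cd3g and Nkg7 had none at 45 days alone, and the summed level of the list was 12.2 CPM at 45 days and 16.7 CPM at 24 months. The part of lymphocytes in the antigen presentation genes was not tested.

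Of 10 measured complement genes 4 were higher at 24 months as counted, 3 with the trend removed, and none was lower. C4b, the mouse complement component 4 (chromosome 17, 34728380 to 34743882, mm10), read 19.0, 19.8, 19.4, 15.9 and 20.4 CPM in the runs at 45 days and 86.8, 75.3, 79.8, 87.4 and 77.3 CPM in those at 24 months. Its summed level of 18.9 CPM at 45 days, 39.0 CPM at 12 months and 80.7 CPM at 24 months gave a fold of 4.27 (3.84 to 4.76) between the first and the last age. Reads of C4b and its copy C4a can be hard to separate. The 3 subunits of C1q, which starts the classical cascade and tags synapses and debris for microglia, were all called: C1qa at 2.63-fold (2.34 to 2.96), C1qb at 2.13-fold and C1qc at 2.02-fold.

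Gpnmb, a transmembrane glycoprotein of lipid-laden and activated microglia (chromosome 6, 49036546 to 49070929), had the third-largest fold of the genes that were higher. It read 1.08, 0.534, 0, 1.18 and 0.440 CPM in the runs at 45 days and 6.18, 5.29, 5.22, 7.54 and 5.78 CPM in those at 24 months. The 2 sets of technical runs were far apart. The summed levels of 0.665 and 5.83 CPM gave 8.77-fold, with a wide interval (5.08 to 16.4) since only few reads were counted at 45 days. Of 18 measured genes of activated microglia 5 were higher and none lower (4 and 0 with the trend removed). Besides Gpnmb these were Tyrobp (3.31-fold, 2.76 to 3.98), the signalling adaptor of TREM2, Trem2 itself (1.81-fold, 1.56 to 2.11), the lysozyme gene Lyz2 (2.48-fold) and the cathepsin gene Ctsz (1.91-fold). The cathepsin Ctss, a lysosomal protease of microglia, went from 37.0 to 97.8 CPM (2.65-fold, 2.44 to 2.87). Genes that mark resting microglia gave no common direction: P2ry12 stood at 24.5 and 17.8 CPM (0.729-fold) and Csf1r at 66.3 and 54.4 CPM (0.821-fold), neither called, against 14.0 and 24.0 CPM for Tmem119 (1.71-fold, 1.495 to 1.97, not called). In that list of 17 genes Trem2, Aif1 (2.58-fold) and the secreted protease inhibitor Cst3 (606.6 to 1618 CPM, 2.67-fold) were called higher, 3 genes by both counts.

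**Figure D2:**
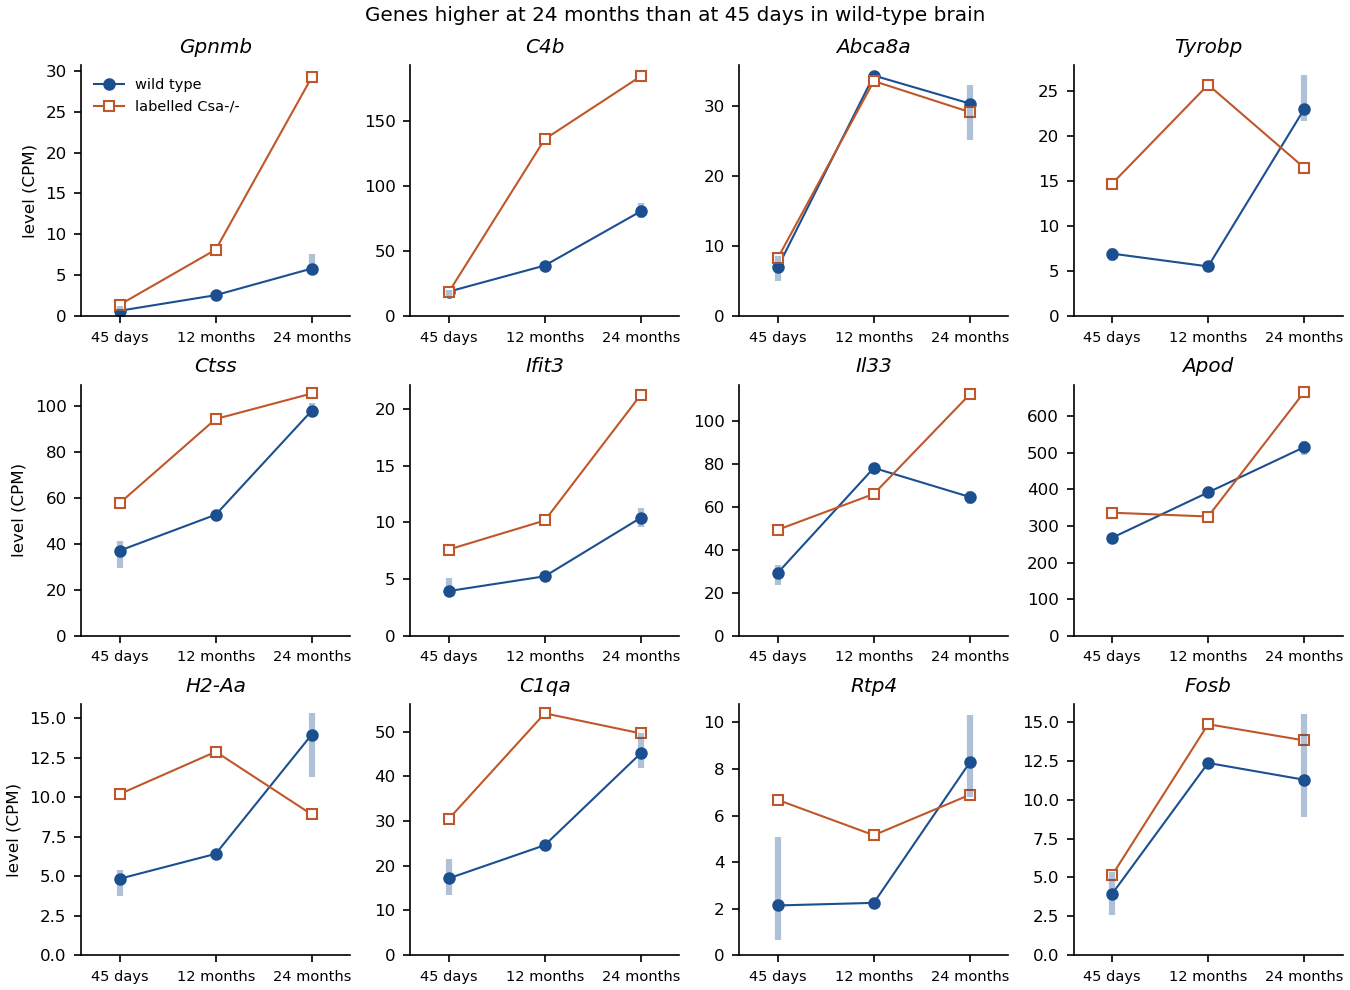
Level in CPM of 12 genes at 45 days, 12 months and 24 months, with filled circles for the wild-type libraries, open squares for those labelled Csa-/- and bars for the range of the 5 wild-type runs. In each panel the wild-type runs at 24 months lie above those at 45 days. The level at 12 months lies between these ages for some genes (Gpnmb, C4b, Ctss) and near or above the level at 24 months for others (Abca8a, Il33, Fosb). For Rtp4 it lies close to the 45-day level and for Tyrobp below it.

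Genes of reactive astrocytes held no call in the wild-type pair, unlike the microglial lists, although their median fold was similar. Of 16 measured members none was called in either direction, by either count. Their median log2 fold was 0.30, beside 0.26 for activated and 0.23 for resting microglia. Gfap, the intermediate filament of reactive astrocytes, stood at 274.2 CPM at 45 days and 329.5 CPM at 24 months (1.2-fold, 1.16 to 1.24), and Vim at 54.8 and 68.9 CPM (1.26-fold). In the libraries labelled Csa-/- 8 of these genes were higher and 1 was lower over the same ages, Gfap among them at 2.38-fold (2.30 to 2.47). Whether the 2 pairs differ could not be tested, with 1 library per group. Of 16 general astrocyte genes 2 were lower in the wild-type pair, 1 with the trend removed, and none was higher, with a median log2 fold of -0.07 and 7 members above 0. The 2 were the water channel gene Aqp4 of astrocyte end-feet, at 229.9 and 119.6 CPM (0.520-fold, 0.498 to 0.543), and the glutamate transporter gene Slc1a3 (0.623-fold), which was not called once the trend was removed.

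A few members of the inflammation, immediate early and clock lists were called higher. Il33, an alarmin made by oligodendrocytes and astrocytes, went from 29.3 to 64.6 CPM (2.21-fold, 2.01 to 2.42) and read 78.2 CPM at 12 months. The inflammasome genes Casp1 (2.67-fold) and Pycard (2.01-fold) were higher as well, which makes 3 of 19 measured inflammation genes, with 3 again after removal of the trend. The median log2 fold of these 19 genes was 0.11 as counted and -0.02 after removal. Of 22 immediate early genes, which neurons switch on within minutes of activity, 4 were higher and none lower: Fosb (3.94 to 11.3 CPM, 2.86-fold, 2.25 to 3.69), Egr4 (1.93-fold), Nr4a1 (1.68-fold) and Egr1 (1.67-fold). After removal of the trend 2 were higher and 1 was lower. Their levels at 12 months were above those at 24 months, with Egr1 at 132, 454 and 221 CPM and Nr4a1 at 39.3, 141.1 and 66.0 CPM in order of age. The clock repressors Bhlhe40 (1.78-fold) and Bhlhe41 (1.63-fold) were the called members of 18 clock genes by both counts. Fkbp5 (1.69-fold), a target of the glucocorticoid receptor, and Mt1 (1.59-fold) were those of 21 glucocorticoid-response genes, and Fkbp5 alone was called with the trend removed. The hour of death is not stated in the sources used here. Abca8a, a lipid transporter whose reads may be shared with Abca8b, went from 6.98 CPM to 34.3 CPM at 12 months and 30.3 CPM at 24 months (4.34-fold, 3.65 to 5.21). Apod, a lipid carrier of oligodendrocytes, went from 267.7 to 515.4 CPM (1.93-fold).

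Genes of the oligodendrocyte lineage were among those lower at 24 months. Gpr17 marks the brief stage between precursor and myelinating cell. It read 104.1, 107.3, 103.7, 115.8 and 97.6 CPM in the runs at 45 days and 33.4, 35.4, 32.9, 36.7 and 37.2 CPM in those at 24 months. The fold was 0.331 (0.307 to 0.357), and the 12-month level of 42.8 CPM lay close to that at 24 months. Enpp6, a choline phosphodiesterase of newly formed oligodendrocytes, was 0.383-fold (0.333 to 0.441), the sialidase Neu4 was 0.566-fold and the precursor receptor Pdgfra was 0.573-fold. In all, 9 of 21 measured genes of precursors and new oligodendrocytes were lower and none was higher, with 6 and 0 after removal of the trend, and the median log2 fold was -0.55.

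Among 28 genes of myelin and mature oligodendrocytes 7 were lower and 1 (Apod) was higher, and removing the trend raised the lower count to 11. Cldn11, which seals the turns of the sheath with tight junctions, read 335, 323.5, 342.7, 338.5 and 332 CPM in the runs at 45 days and 114.5, 114.3, 109.8, 110.4 and 114.2 CPM in those at 24 months, a fold of 0.338 (0.324 to 0.352). Mal, a raft protein of the sheath, went from 792.9 to 344.8 CPM (0.435-fold, 0.424 to 0.446). Ugt8a, the enzyme that makes galactosylceramide, was 0.362-fold, Fa2h, which hydroxylates myelin lipids, 0.515-fold, Tspan2 0.352-fold and the actin-severing gelsolin gene Gsn 0.372-fold. Other genes of myelin proteins were not called as counted: Mog stood at 216.8 and 146.6 CPM (0.676-fold), Mag at 499 and 439.3 CPM (0.880-fold) and Mbp at 5927 and 6979 CPM (1.18-fold).

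A minority of the collagen and matrix genes were lower at 24 months. Col1a1, a chain of fibrillar collagen I made by fibroblasts of meninges and vessels (chromosome 11, 94936224 to 94953042), read 37.4, 37.6, 32.4, 38.9 and 36.3 CPM in the runs at 45 days and 14.0, 11.4, 14.9, 12.7 and 11.1 CPM in those at 24 months. Its fold was 0.351 (0.310 to 0.397), that of the collagen III gene Col3a1 was 0.233 (0.188 to 0.287) and that of Col12a1 was 0.466. These 3 were the called members of 18 measured collagen genes, 2 of which stayed called after removal of the trend, when 8 of the 18 had a log2 fold above 0. Of 36 matrix glycoprotein and remodelling genes 6 were lower (4 with the trend removed) and none higher, led by tenascin C (Tnc, 13.2 to 3.64 CPM, 0.275-fold, 0.218 to 0.344) and the basement membrane gene Nid1 (0.307-fold). Perineuronal nets are matrix cages around fast-spiking neurons. Of 13 measured net genes 6 were lower as counted, among them Tnr (0.329-fold), Vcan (0.536-fold) and Hapln1 (0.557-fold), and 2 with the trend removed. Integrins, the cell's matrix receptors, gave 5 lower of 15 (Itgb8 at 0.293-fold) and 2 with the trend removed. Endothelial genes gave 4 lower of 20 by both counts, among them Slco1a4 (0.425-fold) and the angiopoietin receptor gene Tek (0.454-fold). Markers of cells around vessels and ventricles were counted beside the collagens. Of 19 measured genes of mural cells and fibroblasts 5 were lower (3 with the trend removed) and none higher, Col1a1 among them, and their summed level was 1100 CPM at 45 days and 1117 CPM at 24 months. Of 15 choroid plexus genes 3 were lower by both counts, with a summed level of 1466 and 945.8 CPM. The part of these cells in the collagen and matrix values was not tested.

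**Figure D3:**
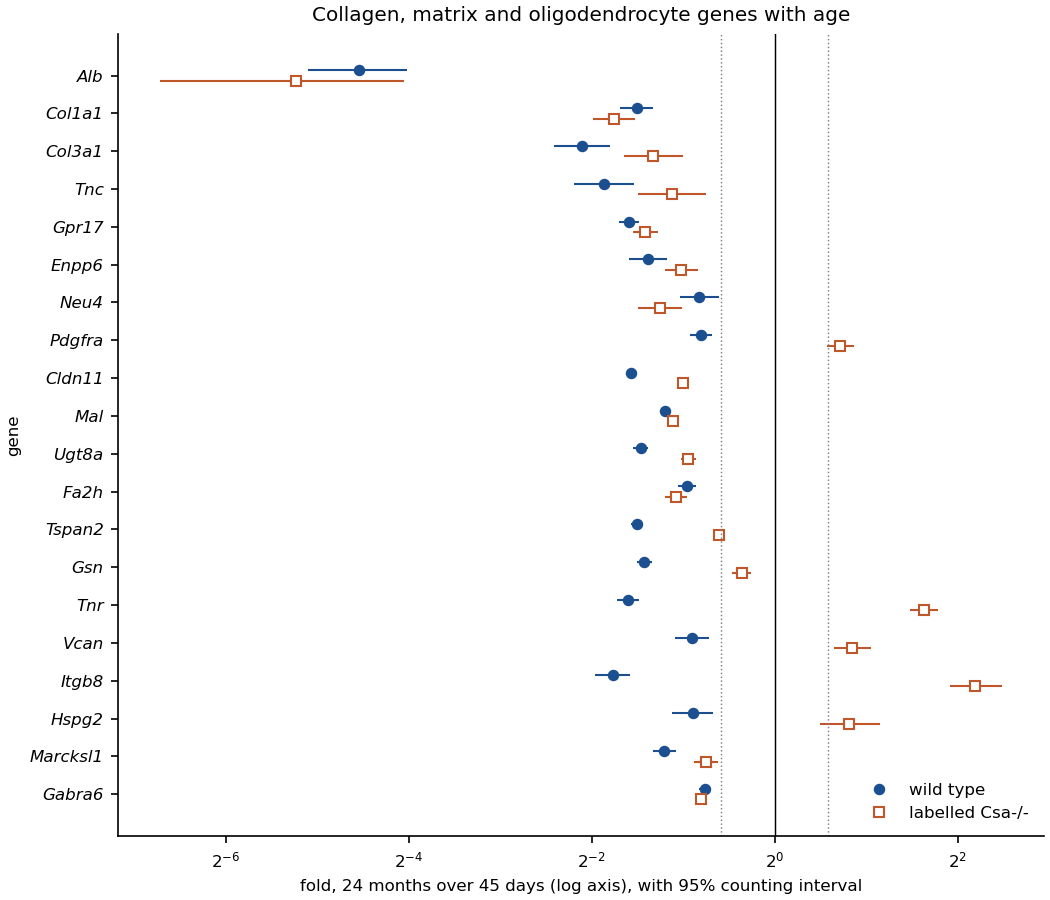
Fold of the level at 24 months over that at 45 days, on a log axis, for 20 genes of collagen, matrix, oligodendrocytes and other lower groups, in the wild-type pair (filled circles) and the pair labelled Csa-/- (open squares), with 95% counting intervals; dotted lines mark 1.5-fold. The wild-type points all lie below the lower line, whereas Tnr, Vcan, Itgb8, Pdgfra and Hspg2 lie above 1 in the pair labelled Csa-/-.

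Members of several lists of neuronal genes were lower as counted, and fewer of them after removal of the trend. Axon guidance genes gave 10 lower of 42 and then 2, with Sema5a at 0.400-fold and Slit2 at 0.489-fold. Voltage-gated channel genes gave 7 lower of 33 and then 3, among them the calcium channel gene Cacna1e (283.5 to 137.4 CPM, 0.485-fold) and the potassium channel gene Kcnh1 (0.510-fold). Glutamatergic synapse genes gave 5 lower of 33 and then 1, the metabotropic receptor gene Grm3 (0.551-fold). Clustered protocadherins, which give each neuron its surface identity, gave 6 lower of 32 and then 5, among them Pcdhgc5 (0.494-fold), and these genes share sequence with their neighbours in the cluster. Of the pathways in the series title, MAPK genes gave 3 lower of 50 and none after removal of the trend (1 was then higher). PI3K-Akt genes gave 6 lower of 47 (Foxo3 at 0.433-fold and Erbb4 at 0.523-fold) and then 2 lower and 1 higher. Over all measured genes 3.77% were lower as counted, and 2.3% were lower and 2.3% higher with the trend removed. The MAPK counts were thus close to the background.

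Genes with short transcripts went the other way. Oxidative phosphorylation genes gave 11 higher of 60 as counted, and 6 higher and 1 lower with the trend removed, with a median log2 fold of 0.38 and then 0.03. Cytosolic ribosomal protein genes gave 10 higher of 62, and then 6 higher and 4 lower. Ndufb4, a subunit of complex I with several processed copies, was 4.71-fold and Rplp1, a stalk protein of the ribosome, 2.79-fold. Their reads may be shared with pseudogenes. Of 33 measured small nucleolar RNAs 31 were higher as counted and none lower, and with the trend removed 3 were higher and 1 lower. These RNAs have no poly(A) tail of their own and lie in introns of host genes.

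**Figure D4:**
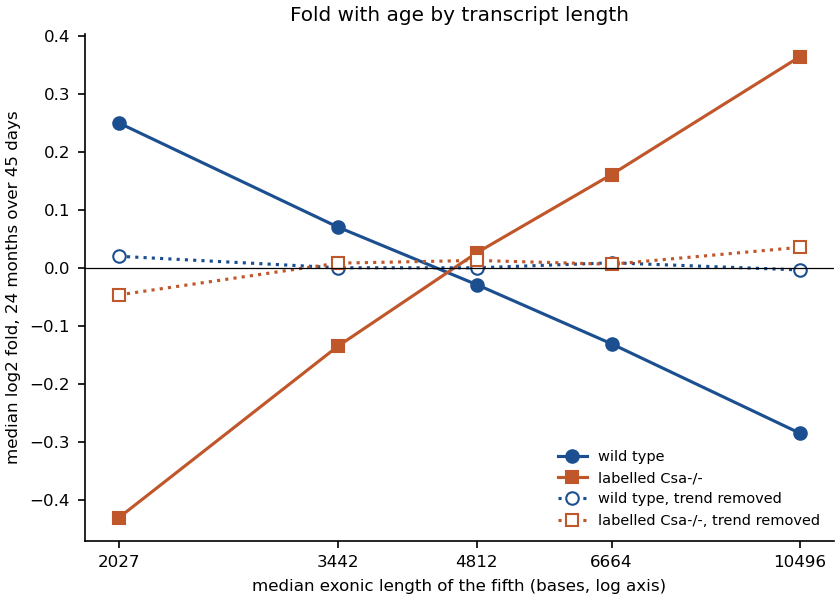
Median log2 fold of protein-coding genes at 24 months over 45 days in 5 groups of equal size by exonic length, against the median length of each group in bases on a log axis. The wild-type median goes from 0.25 in the shortest group to -0.285 in the longest, that of the pair labelled Csa-/- goes from -0.431 to 0.364, and the dotted lines show the same medians after removal of the trend.

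Across protein-coding genes the wild-type fold went down with the length of the transcript. In the group of shortest transcripts (median 2027 bases) the median log2 fold was 0.25, with 216 genes higher and 19 lower. In the group of longest (median 10496 bases) it was -0.285, with 7 higher and 230 lower. The pair labelled Csa-/- had the opposite slope, from -0.431 to 0.364. What produced these slopes was not tested, so that the as-counted values of the long and the short gene groups are given with the values after removal beside them.

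Markers of brain regions and of neighbouring organs moved between the 2 libraries as well. Pituitary genes were higher in 5 of 6 measured members, by both counts: Gh (growth hormone) went from 615.6 to 1705 CPM (2.77-fold, 2.72 to 2.82), Prl from 96.6 to 209.4 CPM, Cga, the shared subunit of the glycoprotein hormones, from 14.9 to 52.7 CPM (3.54-fold), Fshb was 2.77-fold and Pomc 3.23-fold. The summed level of the 13 listed pituitary genes was 923.6 CPM at 45 days, 430.7 CPM at 12 months and 2268 CPM at 24 months in wild type, whereas the libraries labelled Csa-/- had 429.8, 2197 and 1054 CPM at these ages. Of 20 measured neuropeptide and hypothalamic hormone genes 10 were higher (6 with the trend removed) and none lower. Oxt, the oxytocin gene, went from 3.56 to 13.5 CPM (3.80-fold, 2.96 to 4.93), Hcrt (orexin) from 1.47 to 5.69 CPM (3.87-fold) and Pmch, which encodes melanin-concentrating hormone, from 20.6 to 53.2 CPM (2.58-fold). Olfactory bulb genes gave 6 higher and 1 lower of 14 (4 and 0 with the trend removed), with Doc2g at 3.59-fold. Cerebellar genes gave none higher and 6 lower of 17 (5 with the trend removed), such as Fat2 (0.411-fold) and the granule cell receptor gene Gabra6 (0.589-fold). The part of these regional markers in the other results was not tested.

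Genes of testis and liver, tissues that are not in a brain, had some of the most extreme folds on either side. Tnp2, a transition protein of spermatid chromatin, stood at 0.760 CPM at 45 days and 16.3 CPM at 24 months (21.5-fold, 13.1 to 37.9), and the sperm mitochondrial gene Smcp at 0.332 and 5.49 CPM (16.5-fold, 7.84 to 41.7). Of 30 listed testis genes 11 were measured, 6 were higher (5 with the trend removed) and none was lower. Tnp2, Smcp and the listed Ldhc and Prm2 were below 5 CPM at 45 days, so they were measured only through the 24-month library. The absence of lower calls is therefore partly set by the 5 CPM minimum. The summed level of the 30 listed testis genes was 154.2 CPM at 45 days and 244.8 CPM at 24 months, and 159.5 and 121.7 CPM at these ages in the libraries labelled Csa-/-. On the other side stood albumin. Alb (chromosome 5, 90460897 to 90476602) read 31.2, 24.3, 21.9, 22.5 and 24.6 CPM in the runs at 45 days and 0.843, 0.961, 1.11, 0 and 1.83 CPM in those at 24 months (0.0430-fold, 0.0291 to 0.0614). Serpina3k, another gene of hepatocytes, was 0.0535-fold (0.0225 to 0.109). Of 20 liver genes, listed after their values were seen, 3 were measured and 2 of these were lower by both counts. The summed level of the list was 482.6 CPM at 45 days and 404.7 CPM at 24 months. Alb gave 25.1 and 1.08 CPM of it, so most of the sum came from other members and does not follow Alb. In the libraries labelled Csa-/- the sum was 279.5 and 317.8 CPM at these ages. Over all genes, 19543 had a count at 45 days and 20279 at 24 months. Among the 20 liver genes, 7 with counts at 45 days had none at 24 months: Ahsg, Cyp3a11, Fga, Fgg, Mug1, Serpina1a and Serpina1b. The source of these transcripts was not tested. The antisense RNA gene 9630013A20Rik, named after its values were seen, was the only called gene with a fold below that of Alb: it stood at 7.93 CPM at 45 days and 0.303 CPM at 24 months (0.0382-fold, 0.0172 to 0.0743).

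Nucleotide excision repair, the pathway of the Csa protein, held no called gene among 21 measured, and the same was true of 16 genes of the p53 and DNA damage response and of 8 senescence genes as counted. After removal of the trend 1 senescence gene was lower. Cdkn1a (p21) stood at 17.7 and 17.3 CPM (0.982-fold, 0.858 to 1.12). Heat shock and chaperone genes also held none among 21, with Hsp90ab1 at 1.10-fold. For these genes a change beyond 1.5-fold was not detected between these 2 libraries, which does not show that levels were equal in the animals.

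The libraries labelled Csa-/- gave a second pair at the same ages that shares no library with the wild-type pair. In it 940 of 12528 measured genes were higher at 24 months (7.5%) and 1083 were lower (8.64%). Of 12191 genes measured in both pairs, 26 were called higher in both, which is 7.05% of the 369 higher in wild type and 2.96% of the 877 higher in the other pair. Over all 12191 genes the shares called higher were 7.19% in the pair labelled Csa-/- and 3.03% in wild type, so the overlap was close to the background. A further 21 were called lower in both (4.66% of 451 and 2.02% of 1039), below the background shares of 8.52% and 3.7%. More genes moved apart than together, with 176 higher in wild type and lower in the other pair and 188 the reverse. Across these genes, which are not independent replicates, Pearson's r of the log2 folds was -0.435 and Spearman's rho -0.496. With the trend removed the counts in common were 33 higher and 18 lower, those apart were 78 and 67, and r was -0.262. The 33 were then 13.1% of the genes higher in wild type and the 18 were 6.84% of those lower, beside shares over all 12037 genes of 4.23% and 5.0% in the other pair.

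**Figure D5:**
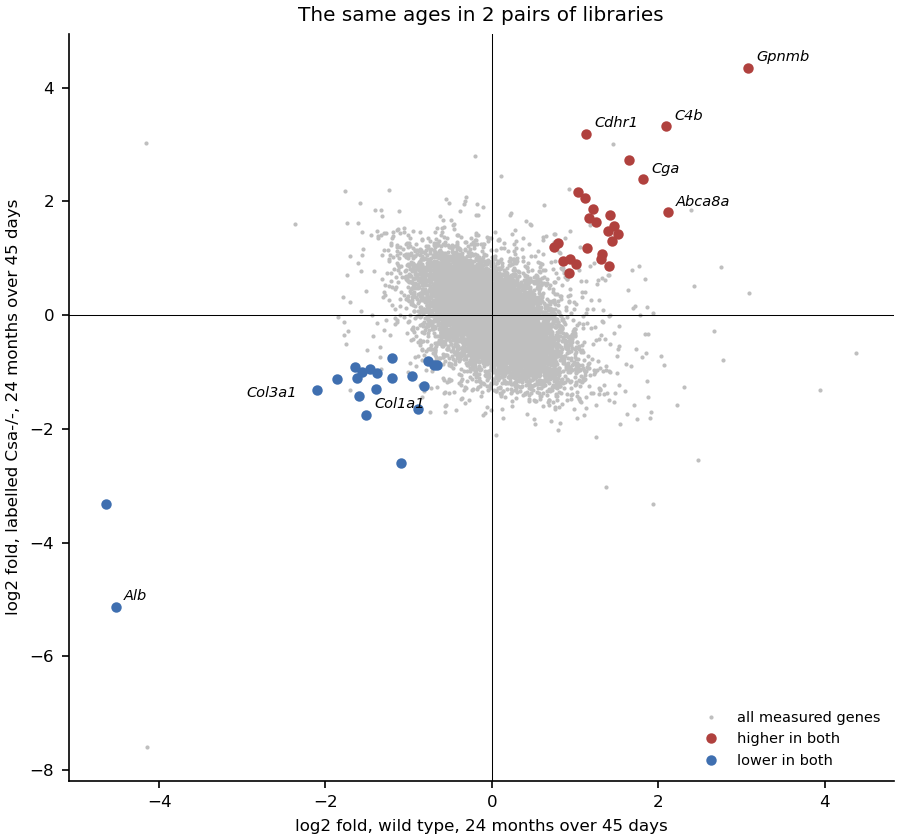
Log2 fold of the level at 24 months over that at 45 days in the wild-type pair (horizontal axis) against the pair labelled Csa-/- (vertical axis) for genes measured in wild type; red points were called higher in both pairs and blue points lower in both. The grey cloud slopes downwards (Pearson's r -0.435 over 12191 genes measured in both pairs), while 26 red and 21 blue points stand off it in the upper right and lower left.

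As the counts in common did not exceed the background as counted, the following genes are named as a description, after their calls were seen. Genes called higher in both pairs with and without the trend included Ifit1, Ifit3, Ifit3b, Oasl2 and Lgals3bp of the interferon list, Gpnmb, Trem2 and Lyz2 of the activated microglia list, C1qc and C4b of the complement list, and Gh, Prl and Cga of the pituitary list. In the pair labelled Csa-/- the folds were 20.9 for Gpnmb, 9.99 for C4b, 3.40 for Ifit1 and 2.28 for Il33, a further member. Ctsz and Nr4a1 were called in both pairs as counted and not with the trend removed. Tyrobp was 1.12-fold as counted in that pair and 1.86-fold (1.59 to 2.18) with the trend removed, when it was called in both pairs, as were C1qa, H2-K1 and Casp1. H2-Aa (0.873-fold), Bst2 (1.09-fold) and Rtp4 (1.03-fold) were not called there by either count, and their difference between the pairs was not tested. Genes called lower in both pairs by both counts included the oligodendrocyte genes Gpr17, Enpp6, Neu4, Mal, Ugt8a and Fa2h, the matrix genes Col1a1, Col3a1, Tnc and Chst3 (a sulfotransferase of chondroitin chains), and Alb. Cldn11, Gjc3 and Marcksl1 were called lower in both as counted alone. The folds of these lower genes in the pair labelled Csa-/- ran from 0.0266 for Alb and 0.297 for Col1a1 to 0.593 for Marcksl1.

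A test across libraries is possible once both genotype labels are pooled. The model held age and genotype label over the 6 summed libraries, 2 per age, and its age term is about both labels together, so it is not a test of the wild type alone. By edgeR's quasi-likelihood F-test with Benjamini-Hochberg adjustment, 23 of 16560 genes were higher at 24 months (0.139%) and 9 were lower (0.0543%). By the same test 388 of the 16560 had an unadjusted p under 0.05, a share below the 0.05 expected if no gene changed. Gpnmb rose by a log2 fold change of 3.80 ± 0.50 (SE, 2 libraries per age, edgeR adjusted p = 1.01e-07) and C4b by 2.62 ± 0.41 (adjusted p = 1.64e-05). Abca8a rose by 1.96 ± 0.39 (edgeR adjusted p = 0.00384), Cdhr1, a cadherin of olfactory bulb mitral cells, by 2.21 ± 0.43 (0.00285) and Lgals3bp, an interferon-induced glycoprotein, by 1.61 ± 0.39 (0.0441). Frmd7 (2.27 ± 0.46), Cga (2.00 ± 0.45) and Fmo2 (2.17 ± 0.49) rose too. On the lower side Alb fell, with a log2 fold change of -4.66 ± 0.58 (edgeR adjusted p = 6.27e-08), and Col1a1 fell with -1.62 ± 0.39 (adjusted p = 0.0420). Each of these 10 genes had its 24-month level on the same side of the 45-day level in 2 of 2 genotype labels. The age term was fitted to the same libraries and favours such genes, so this is no separate check. Of the 9 genes that fell, 7 are known as genes of hepatocytes: Alb, Serpina3k, Cyp3a11, Mup3, Ces1c, Fgg and Gc. The other two were Col1a1 and 9630013A20Rik (-3.75 ± 0.54). Tnp2 passed the higher side (adjusted p = 0.0211) although it stood at 0.200 and 0.133 CPM at 45 days and 24 months in the libraries labelled Csa-/-. Gpr17 missed the threshold (-1.51 ± 0.37, adjusted p = 0.0548), as did Ifit1 (1.61 ± 0.43, adjusted p = 0.129) and Col3a1 (-1.70 ± 0.43, adjusted p = 0.0642). Of these calls, that of Gpnmb held under 13 of 13 alternatives. That of C4b was lost without the 45-day library labelled Csa-/- (adjusted p = 0.498, with a range of 1.38e-07 to 0.498 over its alternatives), and that of Alb without the wild-type library at 45 days, with the trend removed and by DESeq2 (highest adjusted p = 0.706, lowest 2.35e-16). Abca8a was not called without either 45-day library (adjusted p up to 0.649, down to 0.000129 under other alternatives), and Col1a1 was not called under 7 of 13 (adjusted p 0.0249 to 1). The calls of Fmo2 and Lgals3bp were each lost under 7 of 13 (adjusted p 0.000155 to 1 and 0.00264 to 1), without any 1 of the 3 libraries labelled Csa-/- among others. Cga was lost under 4, by DESeq2, with the trend removed, without the wild-type library at 24 months (log2 fold change 0.972) and without the 45-day library labelled Csa-/- (adjusted p 1.67e-06 to 1). Frmd7 was lost under 4 (adjusted p 5.26e-05 to 0.517), with the trend removed and without either 45-day library or the 24-month library labelled Csa-/-. Cdhr1 was lost under 3 (adjusted p 7.29e-07 to 1), with the trend removed and without the 45-day or the 24-month library labelled Csa-/-.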

How the data were processed

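Messenger RNA was sequenced from pulverised brains on an AB SOLiD instrument, 5 times per sample, per the labels' protocols. The deposited table holds raw counts of reads per gene, and Trimmomatic 0.3.9, HISAT2 2.2.1, SAMtools, Subread 2.0.1 and mm10 are named in the submitters' processing notes, with no role for each. The gene annotation and the handling of strand and multi-mapping reads were not given in the sources used here. Symbols were matched to GENCODE M21 (24362 of 25239) for positions and lengths.

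The 5 columns of a group were summed. Folds between 2 libraries used TMM factors (0.951 to 1.03, edgeR 4.0.16 in R 4.3.3) with exact Clopper-Pearson 95% intervals from scipy 1.17.1, a minimum of 5 CPM in the higher library and a bound of 1.5-fold. The floor of 3 counts is 0.142 CPM at 45 days and 0.101 CPM at 24 months in wild type. The length and GC trend was fitted per library with splines and removed as an alternative. The age term used glmQLFTest after filterByExpr on 6 libraries, with 2 residual degrees of freedom. It also had 88.6 prior degrees of freedom, drawn from the spread over all genes. Where nothing says that samples came from separate animals, its p-values measure the spread between these libraries alone. DESeq2 1.42.0 and limma 3.58.1 served as alternatives.

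Tested on simulated data of 12442 genes, the intervals covered a true fold of 1.5 in 95.3%, and 95.0% of 2-fold changes were called. In simulations of the age term over 16314 genes, 13.1% of 2-fold and 79.0% of 4-fold changes were called.

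The text names, by rule, the called genes of largest fold (12 higher, 12 lower, skipping pseudogenes and gene models known by an identifier alone), at most 6 called members of a list (3 of high level where fewer than 2 were called), and at most 10 genes of the age term each way; not all are printed. Genes called in both pairs and the liver list were added after values were seen. Members and lists were chosen with earlier results of these data known.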

Additional observations from a re-analysis of the deposited data

Results flagged for a closer look

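The lowest of the 5 run totals of wild type at 24 months, 2821708 counts, lay farther below the others than Dixon's criterion allows for 5 values, a criterion that chance passes in about 1 of 20 groups. The runs were summed, so this run adds fewer counts to the library than the others.

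Several groups of genes moved one way in the wild-type pair and the opposite way in the pair labelled Csa-/- over the same ages, and these differences were not tested. Of the genes called in both pairs, 176 were higher in wild type and lower in the other pair, and 188 were lower in wild type and higher in the other. With the length and GC trend removed these were 78 and 67. Clustered protocadherins had 6 members lower in wild type and 23 higher in the pair labelled Csa-/- (5 and 24 with that trend removed). As counted, glutamatergic synapse genes had 5 lower and 6 higher, voltage-gated channel genes 7 lower and 12 higher, and PI3K-Akt genes 6 lower and 9 higher. After removal of the trend these counts were 1 and 0, 3 and 2, and 2 and 2. In each pair 1 PI3K-Akt gene was then called the other way. Neuropeptide genes had 10 higher in wild type and 5 lower in the other pair, oxidative phosphorylation genes 11 higher and 37 lower, and cytosolic ribosomal protein genes 10 higher and 32 lower. After removal of the trend these counts were 6 and 2, 6 and 10, and 6 and 13. Then 1 neuropeptide gene was higher in the other pair, and 1 oxidative phosphorylation and 4 ribosomal genes were lower in wild type. Over all measured genes, as counted, 3.3% were higher and 3.77% lower in wild type, and 7.5% and 8.64% in the other pair.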

How the results depend on the processing

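The counts of the wild-type pair, 410 higher and 469 lower, depended most on the bound and the minimum: 912 were higher with no CPM minimum, and a bound of 2-fold left 96 higher and 75 lower. Removing the length and GC trend left 282 lower. The libraries labelled Csa-/- gave 940 higher and 1083 lower. Leaving out single runs gave 379 to 412 higher and 445 to 473 lower. With the 10 runs as replicates, which measures technical spread alone, edgeR called 403 higher and 365 lower, and 422 and 372 with the run number as a replicate block. Deviations of same-numbered runs correlated at 0.0301 to 0.0679 over 13379 genes, under 0.1 in every pair, although each 45-day run correlated best with the 24-month run of its own number. Of 224 named genes under 14 settings, 2997 values moved by less than the counting interval, 139 moved by more (114 of them on removal of the trend, 23 with library totals alone), and 0 reversed.

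For the age term, 23 higher and 9 lower became 9 and 1 with a mean of at least 5 CPM, 9 and 4 by DESeq2, and 4 and 2 with the trend removed. That last fit had 11.8 prior degrees of freedom in place of 88.6, so its fewer calls do not show smaller changes. The named genes lost there kept log2 fold changes close to those above: Alb -4.64, Cdhr1 2.2, Frmd7 2.38, Cga 1.93, Fmo2 2.17, Col1a1 -1.67 and Lgals3bp 1.69. Without the 45-day library labelled Csa-/- 4 were higher, without the 12-month one 12 and without the 24-month one 52. Without the wild-type library at 45 days 2 were lower, and without that at 24 months 31. An age left with 1 library is assumed to vary like the others. For 10 named genes under 13 alternatives, 92 values stayed past the threshold, 38 did not and 0 reversed.

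Depth limits genes of few counts, such as Gpnmb at 45 days. With 1 library per age, the spread between animals was not measured.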

Other observations

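Gene groups outside the comparisons above gave these values in the wild-type pair. Of 31 antioxidant and metal-binding genes 3 were higher and none lower (1 higher with the length and GC trend removed), namely the secreted peroxidase gene Gpx3 (25.6 to 54.0 CPM, 2.11-fold), Gsta4 (1.91-fold) and Mt1. Of 30 monoamine and acetylcholine genes Th, the rate-limiting enzyme gene of catecholamine synthesis, was higher as counted (25.3 to 43.9 CPM, 1.73-fold) and not called with the trend removed, and 5 were lower by both counts, among them the noradrenaline transporter gene Slc6a2 (5.55 to 1.82 CPM, 0.327-fold), the serotonin receptor gene Htr2a (0.384-fold) and the choline transporter gene Slc5a7 (0.456-fold). The glycine transporter gene Slc6a5 of brainstem and spinal neurons had a fold of 0.193 (0.150 to 0.246) and stood at 4.44 CPM at 12 months, against 15.0 CPM at 45 days. In the libraries labelled Csa-/- it was called higher at 24 months (4.54 to 13.8 CPM, 3.04-fold, 2.36 to 3.97), and the difference between the pairs was not tested. Cholesterol synthesis genes gave 1 lower of 23 (Sc5d, 0.617-fold) and none with the trend removed.

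Low-level genes passed the age term that the 5 CPM minimum kept from the wild-type calls. They were read after their values were seen. The microglial genes Itgax (0.570 to 2.32 CPM in wild type), Clec7a (1.04 to 3.54 CPM) and Cst7 (0.0950 to 1.35 CPM) were among them, as were the olfactory epithelium genes Omp (1.38 to 3.67 CPM) and S100a5 (0.0950 to 1.99 CPM).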
